A study of Rattus norvegicus with 72 samples.

Results

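The 41 genes described here encode enzymes of amino acid breakdown and of the urea cycle, 1 mitochondrial carrier of that cycle among them. They were chosen by name, as a list of hepatocyte functions, with earlier results of these data known. Every probe set of the array whose annotated symbol is one of them was taken. All 41 were on the array, with 56 of its 31099 probe sets, among 14217 genes that had a probe set of their own. Of these, 53 probe sets of 40 genes were bright enough to be tested, among 18048 probe sets tested in all. Sds, serine dehydratase, was the exception: its intensity lay between 0.83 and 17.4 on the 72 arrays, below the median intensity of 19.7 that at least 1 group mean had to reach. Mmut is the array's name for the gene listed as Mut. A gene with several probe sets was represented by the one of highest mean.

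The cells were primary rat hepatocytes, liver cells freshly isolated by collagenase perfusion and grown as a monolayer. The medium contained glutamine, glucagon and antibiotics, with serum at plating and later hydrocortisone and insulin without serum. The labels do not give the strain, sex or age of the animals. Cells received 1 of 8 compounds or served as controls, and RNA was collected 24 h and 72 h into the exposure, which made 24 groups of 3 arrays. The genotoxic carcinogens were aflatoxin B1 (19 nM), a mould toxin, the tobacco nitrosamine NNK (625 µM) and 2-nitrofluorene (78 µM). The non-genotoxic carcinogens were Wy-14643 (250 µM), an agonist of the receptor PPARα, the insecticide synergist piperonyl butoxide (13.4 µM) and the antihistamine methapyrilene (8.5 µM). Nifedipine (156 µM), a calcium channel blocker, and clonidine (277 µM), an adrenergic agonist, were the non-carcinogens. Control cells came in 4 sets: 1 for Wy-14643, clonidine and aflatoxin B1 together, 1 for 2-nitrofluorene, piperonyl butoxide and nifedipine together, 1 for NNK and 1 for methapyrilene. The treatment of the controls themselves is not given in the sources used here.

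Array medians lay between 15.8 and 23.8. Of 10 hepatocyte markers such as Alb and Ttr, 9 were on the array, none was at the floor of the values in any group, and their summed intensity lay between 21530 and 56190 on every array. On 10 arrays the log2 ratio of 3′ over 5′ actin signal, a sign of RNA degradation, was 1.84 to 2.71, against 0.36 to 1.11 on the other 62. Among these 10 were all 8 arrays titled with D number 3, which are replicate 3 of clonidine, Wy-14643, aflatoxin B1 and their shared controls at both times. The other 2 were exposed to aflatoxin B1, namely replicate 1 of 24 h and replicate 2 of 72 h. The D number 3 arrays also ran backwards in time. A score over 3937 probe sets, 0 for the 24 h mean and 1 for the 72 h mean of the other 3 control sets, fell by 0.50 from 24 h to 72 h in their 4 pairs (range −0.66 to −0.35). It rose by 0.69 on average in 23 pairs of other numbers (0.35 to 1.23). Counts of called genes that rest on these arrays are therefore given with and without them where they differed, under the exposure times of their labels. Other values include these arrays unless stated, among them those of markers, regulators and the second list.

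Liver takes up most amino acids that are not built into protein. Their amino groups are collected by aminotransferases and glutamate dehydrogenase, and the ammonia enters the urea cycle, which runs between mitochondria and cytosol from carbamoyl phosphate to urea. The carbon skeletons follow separate routes: tyrosine to fumarate, tryptophan to the kynurenines, histidine to glutamate, and methionine through homocysteine to cysteine and taurine. Many of these enzymes mark the differentiated hepatocyte, and glucagon and glucocorticoids raise several of them in liver.

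Promoters are shown for 3 members that fell together with time in culture, beside genes of the regulators HNF4α and C/EBP that are described with them. RefSeq (assembly GRCr8) gave a window of 250 bases before to 50 after the start for 34 of the 41 genes. The HNF4 sequence CAAAGTCCA was searched on both strands and stood in 2 of the 34, Cps1 and Kmo, against 0.391% of all 33469 windows. The C/EBP sequence TTGCNNAA was searched likewise and stood in 4 (Hgd, Qdpr, Kynu and Aass), against 10.6% of all windows. Capitals mark these matches. The windows are chr9:76063613-76063912, plus strand, for Cps1, chr13:90089271-90089570, plus strand, for Kmo, and chr11:76643718-76644017, minus strand, for Hgd.
Cps1: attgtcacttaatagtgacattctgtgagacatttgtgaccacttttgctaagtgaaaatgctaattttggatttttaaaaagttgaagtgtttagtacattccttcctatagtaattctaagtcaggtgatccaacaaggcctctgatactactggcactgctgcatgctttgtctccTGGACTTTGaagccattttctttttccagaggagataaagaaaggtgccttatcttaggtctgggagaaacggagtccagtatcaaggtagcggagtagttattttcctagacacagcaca
Kmo: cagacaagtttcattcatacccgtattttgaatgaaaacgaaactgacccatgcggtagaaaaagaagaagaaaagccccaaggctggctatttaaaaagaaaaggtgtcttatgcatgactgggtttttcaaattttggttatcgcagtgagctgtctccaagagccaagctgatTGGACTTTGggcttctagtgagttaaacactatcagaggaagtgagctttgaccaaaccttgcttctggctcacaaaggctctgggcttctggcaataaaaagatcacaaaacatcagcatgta
Hgd: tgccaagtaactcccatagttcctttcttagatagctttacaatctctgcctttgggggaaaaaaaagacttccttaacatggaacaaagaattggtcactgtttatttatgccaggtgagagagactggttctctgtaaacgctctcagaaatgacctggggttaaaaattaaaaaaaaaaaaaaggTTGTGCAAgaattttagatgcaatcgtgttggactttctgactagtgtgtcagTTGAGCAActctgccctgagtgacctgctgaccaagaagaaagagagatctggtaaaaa
The HNF4 match began at position −71 in Cps1 and −74 in Kmo, both on the strand opposite to the gene. The start was counted as 1, with no position 0. Hgd held 2 C/EBP matches, at −62 and −9, also on the opposite strand, so the capitals show the reverse complement of the letters searched. The cyclic AMP element TGACGTCA stood in 0 of the 34 (1.83% of all windows), the palindromic glucocorticoid receptor element in 1, Gnmt (0.439%), the nuclear receptor element DR1 in 0 (0.0538%) and the HNF1 sequence in 0 (0.0448%). The TATA box letters TATAAA, also searched on both strands, stood in 4 (Ass1, Tdo2, Ftcd and Bhmt), against 14.2% of all windows. No member held more than 1 of these motifs, so no matches of different motifs overlapped. A match says only that the letters stand in the window.

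Time in culture was compared first, in control cells, as the mean change from 24 h to 72 h over the 3 control sets without D number 3. Of the 40 genes 29 fell and 0 rose (limma, Benjamini-Hochberg adjusted p under 0.05 over all probe sets), where 8.62% of all probe sets fell and 13.2% rose. The median change of the 40 was −0.63 on the log2 scale, against 0.03 for all probe sets. Since the genes were chosen with earlier results of these data known, these counts are a description and not an independent test. Under quantile normalization 23 were called, and Ass1, Arg1, Hpd, Ftcd, Mat1a and Cth were not, so that not all genes of the urea cycle, tyrosine and histidine routes passed. The NNK and 2-nitrofluorene sets share D numbers 7 to 9, so their controls may not be separate cultures. The fit counted their arrays as separate, so the SE and p-values of this mean may be too small.

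All 7 urea cycle genes fell. Otc, ornithine transcarbamylase, which joins carbamoyl phosphate to ornithine, changed by −1.18 ± 0.30 (SE, adjusted p = 0.00344), and the ornithine carrier Slc25a15 by −0.66 ± 0.12. Cps1, which fixes ammonia at the head of the cycle, changed by −0.50 ± 0.08 and Arg1, arginase, which releases urea, by −0.42 ± 0.12. All 6 genes of phenylalanine and tyrosine breakdown fell as well, from Hpd, hydroxyphenylpyruvate dioxygenase, at −0.34 ± 0.09 to Hgd, homogentisate dioxygenase, at −1.61 ± 0.28. In the NNK controls Hgd measured 880, 521 and 433 at 24 h and 97.1, 139 and 181 at 72 h in replicates 1 to 3. Fah, which makes the last cut of the tyrosine route, measured 1958, 2055 and 2004 there at 24 h and 1113, 701 and 1051 at 72 h. Neither gene's 24 h and 72 h arrays overlapped in that set.

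All 3 histidine genes fell: Hal, histidase, at −1.05 ± 0.24, Uroc1, urocanase, at −1.38 ± 0.26, and Ftcd, which passes the formimino group to folate, at −1.07 ± 0.38. Uroc1 measured 665, 689 and 671 at 24 h and 210.3, 211 and 320.3 at 72 h in the 2-nitrofluorene controls. It measured 558, 563 and 548 at 24 h and 219, 205 and 397 at 72 h in the NNK controls, and 592, 337 and 792 at 24 h and 242, 137 and 178 at 72 h in those of methapyrilene. Within each set every 72 h array lay below every 24 h array. Of the tryptophan genes, Tdo2, Kmo and Haao fell (−0.65 ± 0.16, −1.08 ± 0.27 and −1.05 ± 0.23), while Kynu, kynureninase, measured −0.21 ± 0.16 and was not called.

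The largest fall of the 40 was in Gpt, cytosolic alanine aminotransferase, at −2.34 ± 0.37 (adjusted p = 9.51e-06). Gpt measured 780, 1640 and 822 at 24 h and 236, 78.7 and 259 at 72 h in the 2-nitrofluorene controls. The NNK controls gave 838, 1325 and 783 at 24 h and 200.2, 62.6 and 226 at 72 h, and the methapyrilene controls 1236, 758 and 813 against 344, 167 and 402. The highest 72 h array thus lay below the lowest 24 h array over all 3 sets. Liver glutaminase, Gls2, was the only other of the 7 genes of glutamine, glutamate and transamination that fell (−0.88 ± 0.15). In the 2-nitrofluorene controls Gls2 measured 355, 393 and 465 at 24 h and 201, 167 and 210 at 72 h, with no overlap. Glutamine synthetase Glul (0.16 ± 0.13), Glud1 (−0.05 ± 0.18), the aspartate aminotransferases Got1 (0.42 ± 0.21) and Got2 (0.06 ± 0.07) and Agxt (0.19 ± 0.16) were not called. A second probe set of Glul was higher at 72 h by 0.47 ± 0.17 (adjusted p = 0.0477), so its probe sets differed in their call.

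In the methionine and cysteine routes Mat1a, Gnmt, Cbs, Cth and Cdo1 fell, and Bhmt (−0.03 ± 0.47) and Csad (−0.35 ± 0.22) were not called. Cbs, cystathionine β-synthase, which commits homocysteine to cysteine, changed by −0.91 ± 0.18. In the 2-nitrofluorene controls Cbs measured 289, 489 and 525 at 24 h and 218, 122 and 216 at 72 h, without overlap. Cdo1, cysteine dioxygenase, changed by −1.07 ± 0.18 and Gnmt, the glycine methyltransferase that uses up S-adenosylmethionine, by −1.11 ± 0.25. Prodh, proline dehydrogenase, changed by −0.70 ± 0.19 and Aass, the first enzyme of lysine breakdown, by −1.02 ± 0.26. Of the branched-chain genes only Ivd, isovaleryl-CoA dehydrogenase, fell (−0.42 ± 0.14), beside Mmut at −0.34 ± 0.13 (adjusted p = 0.0511), Bckdha at −0.26 ± 0.18 and Bckdhb at −0.47 ± 0.38. With single arrays left out 24 of the 29 kept their call in all 18 fits. Nags lost it without methapyrilene control replicate 2 at 72 h, and Cth and Ivd without replicate 2 of the 72 h controls in 3 and 2 sets. Mat1a lost it without any 1 of 5 arrays and Ftcd without any 1 of 11.

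**Figure D1:**
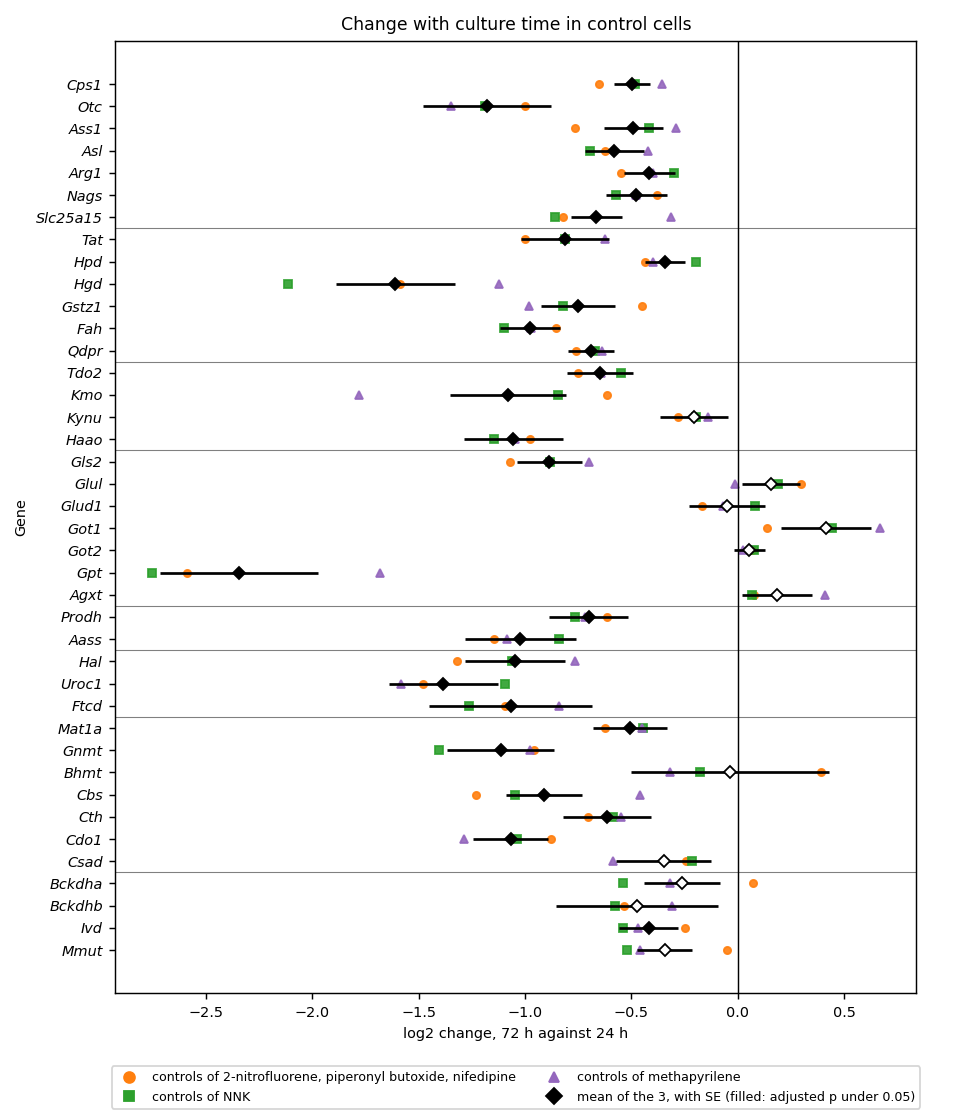
Log2 change from 24 h to 72 h in control cells for 40 genes, with coloured points for 3 control sets and diamonds for their mean with its SE, filled where the adjusted p was under 0.05. The 29 filled diamonds all lie left of 0, with Gpt at −2.34 the farthest.

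Taken set by set, with 3 arrays against 3, fewer genes passed. In the 2-nitrofluorene controls 7 fell (Gpt, Cbs, Gls2, Fah, Slc25a15, Qdpr and Cps1), where 1.31% of all probe sets fell and 1.4% rose. In the NNK controls 7 fell (Gpt, Hgd, Fah, Cbs, Cdo1, Slc25a15 and Qdpr; 1.22% of all probe sets fell and 1.63% rose), and in those of methapyrilene 2, Cdo1 and Fah (0.205% and 0.305%). None of these calls held in all 6 fits with 1 array left out. Without replicate 2 of the 24 h or of the 72 h NNK controls Gpt was no longer called in that set, and likewise in the 2-nitrofluorene set. Others were less stable: Cdo1 in the NNK controls held in 0 of 6 fits. Fah in the 2-nitrofluorene controls, Cbs and Qdpr in the NNK controls and both methapyrilene calls held in 1 of 6. With the D number as a block the counts were 14, 13 and 6, given without a share of all probe sets. Arrays of equal number did not deviate together over time in the first 2 of these sets. Their deviations from the group means correlated at −0.134, −0.082 and −0.118 in the 2-nitrofluorene controls and at −0.092, −0.076 and −0.021 in the NNK controls. In the methapyrilene controls the values were 0.43, 0.432 and 0.353. In the controls of the Wy-14643 set 0 of the 40 were called (0 of all probe sets, and 0 of the 40 at an unadjusted p under 0.05). There the median of the 40 was −0.36 in D number 1, 0.16 in D number 2 and 0.64 in D number 3. Without D number 3 the median was −0.11 and still 0 genes were called.

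Markers of other cells also changed with culture time over the same 3 control sets. The 8 endothelial markers had a summed intensity of 206 to 280.0 on the 24 h arrays and 63.5 to 168 on the 72 h arrays. Vwf and Stab2 were at the floor in some of these groups, and Pecam1, Kdr and Tek, also dim at 72 h, passed the filter through brighter groups, so no count of calls is given. The sum over 5 bile duct markers went from 252 to 417 to 407 to 1018. Epcam rose by 1.09 ± 0.19, Krt7 was at the floor on all 9 of the 24 h arrays, which leaves its change without a size, and Krt19 and Spp1 were at the floor in some groups. Of the 14 macrophage markers 3 fell (median −0.16), and of the 8 stellate and fibroblast markers 1 rose and 1 fell (median 0.25). Of the 9 hepatocyte markers 3 fell, 0 rose and the median was −0.31, with Alb, albumin, at −0.03 ± 0.17. Fewer hepatocytes and less RNA per hepatocyte cannot be told apart in such samples, and the part of other cells in the fall of these genes was not tested.

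Among 62 tested genes of a second list of amino acid enzymes and carriers, 28 fell and 4 rose with culture time, with a median of −0.36. The largest falls were in Aldh4a1, which follows Prodh in proline breakdown (−1.16 ± 0.14), the sulfur transferase Tst (−1.11 ± 0.13) and the glutamine carrier Slc38a3 (−1.06 ± 0.16). Sqor (0.69 ± 0.19), the asparagine synthetase gene Asns (0.47 ± 0.13) and Acad8 (0.44 ± 0.15) rose most, and Gpt2, the mitochondrial counterpart of Gpt, rose by 0.43 ± 0.14. Of 16 regulators tested 4 fell: Klf15 (−0.87 ± 0.17), Cebpa (−0.79 ± 0.23), Hnf4a (−0.73 ± 0.14) and Cebpb (−0.59 ± 0.14), all transcription factors of hepatocyte genes. Sirt5, a mitochondrial deacylase, rose by 0.33 ± 0.10.

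Compounds were then compared with the controls of their set, time by time. Over the 16 comparisons 17 calls were made in 13 of the 40 genes, all of them falls. The comparisons of a set share controls, so their values are not independent of each other. Counts at an unadjusted p are given without the share of all probe sets at that threshold, which was not worked out. The percentages of all probe sets are of adjusted calls, so these counts cannot be set against them.

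**Figure D2:**
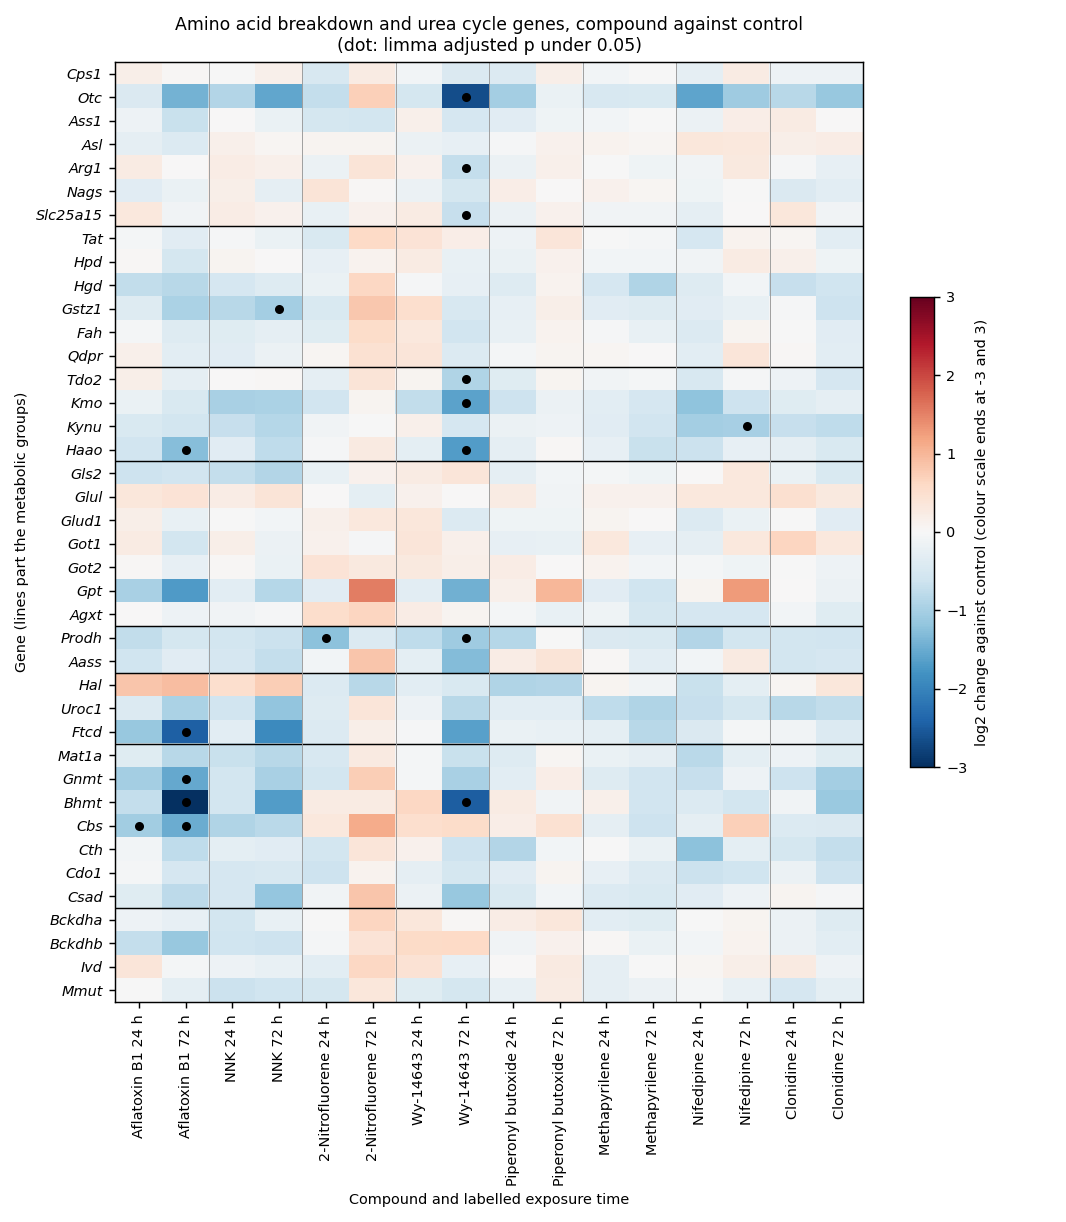
Log2 change against control for 40 genes (rows, in metabolic groups) and 16 comparisons (columns), blue for lower and red for higher, with a dot where the adjusted p was under 0.05. The dots stand on blue cells alone, 8 of them in the column of Wy-14643 at 72 h and 5 in that of aflatoxin B1 at 72 h.

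Wy-14643 lowered genes of several routes at 72 h. Of the 40 genes 8 fell and 0 rose, where 4.49% of all probe sets fell and 2.82% rose, and the median was −0.52 against −0.03 for all probe sets. Otc measured 256, 72.3 and 37.8 in replicates 1 to 3 and 357, 846 and 573 in the controls. No treated array reached the lowest control, and replicate 3 was the lowest. Otc changed by −2.65 ± 0.52 (adjusted p = 0.000504) and kept its call with each of the 6 arrays left out. It changed by −2.01 (adjusted p = 0.0163) without D number 3. Arg1 and Slc25a15 of the urea cycle also fell, Arg1 by 0.73 ± 0.21 and Slc25a15 by 0.70 ± 0.21. The other 4 lay between −0.52 and −0.24 without a call.

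Of the 4 tryptophan genes 3 fell after 72 h of Wy-14643. Haao, hydroxyanthranilate dioxygenase, which makes the precursor of quinolinate and NAD, measured 161, 195 and 241 against 359, 913 and 753, without overlap, a change of −1.68 ± 0.40 (adjusted p = 0.00495). Kmo, which hydroxylates kynurenine, changed by −1.61 ± 0.47 and Tdo2, the entry enzyme, by −0.91 ± 0.27. Kynu was not called: it measured 613 on replicate 1 and 236 and 157 on the others, against 354, 544 and 341. Bhmt, which returns homocysteine to methionine with betaine, measured 2762, 383 and 233 against 4502, 5997 and 1582. Its replicate 1 lay among the controls, and its change of −2.48 ± 0.81 (adjusted p = 0.0475) was lost without any 1 of 4 arrays. Prodh measured 87.5, 81.2 and 101 against 145, 197 and 231, without overlap, and changed by −1.07 ± 0.32.

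In the remaining routes no gene was called, and whether they differed from those with calls was not tested. Of the 6 phenylalanine and tyrosine genes 0 were called (median −0.32), nor were any of the 3 histidine genes, though all 3 were lower (median −0.83), the 4 branched-chain genes (median −0.10) or the 7 of glutamine, glutamate and transamination (median 0.08). Cbs was 0.54 ± 0.31 without a call. The count of falls was 12 with the D number as a block, which added Aass, Cps1, Csad and Ftcd. It was 18 with a block within each time (chosen after seeing the data), which also called Uroc1, Fah, Gpt, Mmut, Gnmt and Nags. It was 5 without D number 3 (Otc, Haao, Kmo, Tdo2 and Arg1) and 11 with the 10 high-actin arrays left out. With single arrays left out it lay between 1 and 13. Control replicate 2 decided each of these calls but that of Otc, and Wy-14643 replicate 2 those of Arg1, Tdo2, Kmo, Prodh, Slc25a15 and Bhmt. The fit on the arrays of this comparison alone, with 2 groups to estimate the spread, called 0. Of all probe sets 1320 were called in the main fit, 1652 without D number 3, 2255 without the high-actin arrays and 12 in the last fit.

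The second list gave 8 falls and 3 rises among 62 genes after 72 h of Wy-14643. Gamt, of creatine synthesis (−1.60 ± 0.31), Bhmt2, a relative of Bhmt (−1.33 ± 0.29), and Chdh, which makes betaine from choline (−1.30 ± 0.33), fell most. Mtr, the folate-dependent methionine synthase, whose controls were below the brightness limit, rose by 1.39 ± 0.38, and Dbt and Hibch of the branched-chain routes by 0.98 ± 0.24 and 0.85 ± 0.20. Of the regulators Gcgr, the glucagon receptor, fell by 2.33 ± 0.39 (adjusted p = 5.23e-05). Macrophage markers were lower in the same arrays: 5 of 14 fell, 1 of 14 was higher, the median was −1.67, and the summed intensity was 498 to 929 against 851 to 1642 in the controls, with none at the floor. Hepatocyte markers were lower too, with 3 of 9 called and a sum of 21530 to 28830 against 33580 to 39650. Their part in the result was not tested. At 24 h of Wy-14643 0 of the 40 were called (2 at an unadjusted p under 0.05), where 0.0443% of all probe sets were, and the median was 0.14. That median rests on D number 3: it was −0.08 without it, and −0.10, −0.04 and 0.45 in the pairs of D numbers 1, 2 and 3. The difference between the effects at 72 h and 24 h was called for 0 genes, 9 at an unadjusted p under 0.05.

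Cbs was called lower than its controls at both times of aflatoxin B1. At 24 h Cbs measured 185, 176 and 109 against 324, 315 and 299 in the controls, which did not overlap. The change was −1.04 ± 0.31 (adjusted p = 0.0447), and it was the only call among the 40 genes (2.5%). Of all probe sets 1.53% fell and 1.8% rose, so 1 call is close to that share. The call of Cbs was lost without any 1 of 5 arrays, and its change measured −0.83 (adjusted p = 0.199) without D number 3. The median of the 40 genes was −0.18, and −0.54 without D number 3. In the pairs of D numbers 1, 2 and 3 that median was −0.40, −0.56 and 0.35, with 32, 35 and 15 genes lower. Macrophage markers were higher on the 24 h arrays in 12 of 14 cases without a call (median 0.76, sum 1576 to 3211 against 794 to 1850), and their part in the result was not tested. At 72 h Cbs measured 148, 64.3 and 186 against 310.2, 386 and 327, again without overlap. The change was −1.49 ± 0.31 (adjusted p = 0.000878), −1.83 without D number 3 and −1.03 (adjusted p = 0.0964) without aflatoxin B1 replicate 2.

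At 72 h of aflatoxin B1 5 genes fell and 0 rose, where 2.13% of all probe sets fell and 2.78% rose, and the median of the 40 was −0.51 against 0.01. Replicate 2, an array of high actin ratio, stood apart. Against its numbered control 38 of the 40 genes were lower, with a median of −1.32, while 21 and 27 were lower in replicates 1 and 3 (medians −0.06 and −0.13). Bhmt measured 2098, 39.7 and 948 against 4502, 5997 and 1582, a change of −3.03 ± 0.81. The groups overlapped, since control replicate 3 lay below treated replicate 1. Ftcd measured 937, 56.4 and 714 against 1613, 3204 and 1188, without overlap, a change of −2.45 ± 0.66. Gnmt measured 519, 201 and 783 against 825, 1526 and 1552, also without overlap, a change of −1.53 ± 0.44. Haao measured 265, 108 and 591 against 359, 913 and 753, with treated replicate 3 inside the control range, and its change of −1.29 ± 0.40 was close to the threshold (adjusted p = 0.0497). Without aflatoxin B1 replicate 2 none of these 4 kept its call, with Bhmt at −1.31 and Ftcd at −1.16. Without control replicate 2 none of the 4 kept its call either. Bhmt also lost it without control replicate 1 and Gnmt without control replicate 3. Haao lost it without control replicate 3 or aflatoxin B1 replicate 1 too. The count was 10 with the D number as a block and 13 without D number 3. It was 0 on the arrays of the comparison alone and 0 to 10 with single arrays left out. Of all probe sets 886 were called in the main fit and 2318 without D number 3. With the high-actin arrays left out only replicate 1 stood for aflatoxin B1, and Cbs changed by −1.23 and Bhmt by −1.31.

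**Figure D3:**
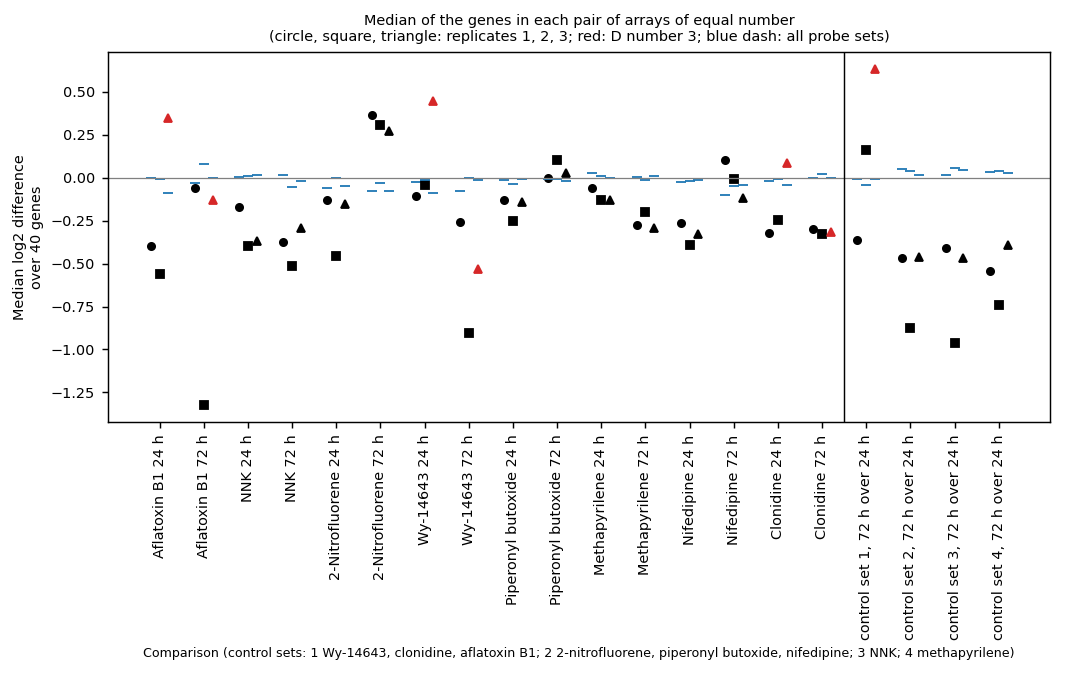
Median log2 difference over 40 genes in each pair of arrays of equal number, for 16 compound comparisons and the 4 control sets over time, with red for D number 3 and blue dashes for all probe sets. Aflatoxin B1 replicate 2 at 72 h stands lowest at −1.32, and the D number 3 controls stand above 0 over time (0.64) where those of 3 other sets lie below it. In the same control set D number 2 also stands above 0 (0.16) and D number 1 below it (−0.36).

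In the second list Asns (−1.29 ± 0.22), Chdh (−1.20 ± 0.33) and Pcca (−1.19 ± 0.28), a subunit of propionyl-CoA carboxylase, were the largest of 5 falls at 24 h of aflatoxin B1, and Aldh4a1 rose by 0.86 ± 0.24. At 72 h 9 of 62 fell, led by Dao, the D-amino acid oxidase (−2.06 ± 0.52), Pcca (−1.54 ± 0.28) and Chdh (−1.54 ± 0.33), and Acad8 rose by 1.08 ± 0.26. None of the 16 regulators was called at 72 h. Macrophage markers were higher on these arrays without a call: 13 of 14, with a median of 1.04 and a sum of 1818 to 2616 against 851 to 1642 in the controls. Of 8 stellate and fibroblast markers 7 were higher without a call (median 0.84), and the hepatocyte sum was 23140 to 43960 against 33580 to 39650. Their part in the result was not tested. The change of effect from 24 h to 72 h was called for 0 of the 40 genes (2 at an unadjusted p under 0.05).

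After 72 h of NNK Gstz1, the isomerase before Fah in the tyrosine route, was called lower. Gstz1 measured 229.7, 162 and 322 against 456, 393 and 568 in the controls, with no overlap. The change was −1.03 ± 0.30 (adjusted p = 0.0424) and was lost without any 1 of 5 arrays. On the arrays of the comparison alone Kynu was called in its place. Gstz1 was the only call among the 40 (2.5%), close to the 1.65% of all probe sets that fell, while 1.67% rose. Of the 40 genes 32 were lower and the median was −0.36. With the D number as a block 8 genes were called (Csad, Ftcd, Gls2, Gstz1, Kynu, Mat1a, Otc and Uroc1), and 5 and 9 without D number 3 and with the 10 arrays of high actin ratio left out, which enter this comparison only through the shared spread. Of all probe sets 600 were called in the main fit, 1331 without D number 3 and 1930 without the high-actin arrays. At 24 h 0 of the 40 were called (7 at an unadjusted p under 0.05), where 0.499% of all probe sets fell and 0.421% rose, with a median of −0.33. Cbs was lower at both times without a call, by −0.91 ± 0.31 (adjusted p = 0.188) at 24 h: it measured 180, 200.4 and 251 against 319, 433 and 430.2. In the second list Pcca fell at 24 h (−1.14 ± 0.28), and at 72 h Chdh (−1.41 ± 0.33), Dmgdh (−1.32 ± 0.40), Gpt2 (−0.97 ± 0.24) and Pcca fell and Mpst rose (0.68 ± 0.17).

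2-Nitrofluorene lowered Prodh at 24 h. Prodh measured 128, 92.1 and 82.1 against 249, 231 and 216, so that the highest treated array lay far below the lowest control. The change was −1.23 ± 0.32 (adjusted p = 0.0357), lost without any 1 of 5 arrays, and no other of the 40 was called (median −0.23), where 0.338% of all probe sets fell and 0.792% rose. The block gave 3 calls, with Prodh and Cps1 lower and Got2 higher. On the same arrays all 9 hepatocyte markers were lower, 1 of them called (median −0.28, sum 33050 to 39620 against 40850 to 56190), and 13 of 14 macrophage markers were lower without a call (median −0.61). Their part in the result was not tested.

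At 72 h of 2-nitrofluorene most of the genes lay above their controls, and none was called. Of the 40, 34 were higher, with a median of 0.33 against −0.07 for all probe sets, and 6, 8 and 9 genes were lower in the pairs of replicates 1, 2 and 3. At an unadjusted p under 0.05 12 were called, with no share of all probe sets at hand for that threshold. Of all probe sets 0.698% rose and 0.111% fell at an adjusted p under 0.05. Cbs measured 496, 267 and 437 against 218, 122 and 216, with no overlap, a difference of 1.11 ± 0.31 (adjusted p = 0.0709). With the D number as a block Cbs was the 1 gene called, and without D number 3 Cbs and Ivd were. Gpt measured 753, 249 and 629 against 236, 78.7 and 259, a difference of 1.54 ± 0.64 (adjusted p = 0.445) with 1 treated array inside the control range. The same controls set the Gpt values of piperonyl butoxide (1.00 ± 0.64) and nifedipine (1.27 ± 0.64) at 72 h, neither called. Against this direction Hal measured 33.4, 40.7 and 43.1 against 59.0, 76.9 and 73.8, a difference of −0.84 ± 0.41 without a call. The change of effect from 24 h to 72 h was called for 0 genes, 8 at an unadjusted p under 0.05, with 34 of 40 above 0 and a median of 0.65.

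The second list had 4 rises and 0 falls among 62 genes at 72 h of 2-nitrofluorene, with a median of 0.27. They were Aadat, a kynurenine and aminoadipate transaminase (1.40 ± 0.37), Gcdh, which follows in lysine and tryptophan breakdown (0.96 ± 0.20), Hibch (0.95 ± 0.20) and Aldh4a1 (0.94 ± 0.24). At 24 h Hibch rose by 0.90 ± 0.20 and nothing fell. Macrophage markers were lower at 72 h without a call (1 of 14 higher, median −1.07, sum 578 to 1284 against 980 to 2152), and 8 of 9 hepatocyte markers were higher without a call (median 0.15). Their part in the result was not tested.

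After 72 h of nifedipine Kynu was called lower. Kynu measured 179, 166 and 240.4 against 424, 341 and 393, with no overlap, a change of −0.996 ± 0.27 (adjusted p = 0.0303) that was lost without any 1 of 5 arrays. At 24 h the values were 197, 261 and 235 against 430.2, 559 and 423, also without overlap, and the change of −1.02 ± 0.27 was not called (adjusted p = 0.0754). Kynu was the only call at 72 h (2.5% of the 40), close to the 1.83% of all probe sets that fell, while 1.35% rose. The median of the 40 was −0.05. At 24 h 0 were called (7 at an unadjusted p under 0.05), where 0.188% of all probe sets fell and 0.271% rose, and the median was −0.34. With the D number as a block Kynu and Cth were called at 24 h. In the second list Gpt2 fell at 24 h (−0.95 ± 0.24), and Shmt2 (1.41 ± 0.31), Ethe1 (0.91 ± 0.27) and Tst (0.85 ± 0.23) rose at 72 h. Of the regulators at 72 h the bile acid receptor Nr1h4 fell by 1.18 ± 0.32, and Ppara was also called higher, with its 3 controls at the floor, so no size is given. Macrophage markers were lower at 72 h, 2 of 14 called, with 1 of 14 higher, a median of −1.42 and a sum of 557 to 1224 against 980 to 2152. Stellate and fibroblast markers had a median of −0.80 at 72 h (3 of 8 higher) and −0.77 at 24 h (0 of 8 higher), and the bile duct sum was 584 to 748 against 805 to 1000 at 72 h, none of them called. At 24 h 0 of 9 hepatocyte markers were higher (median −0.18). Their part in the result was not tested.

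**Figure D4:**
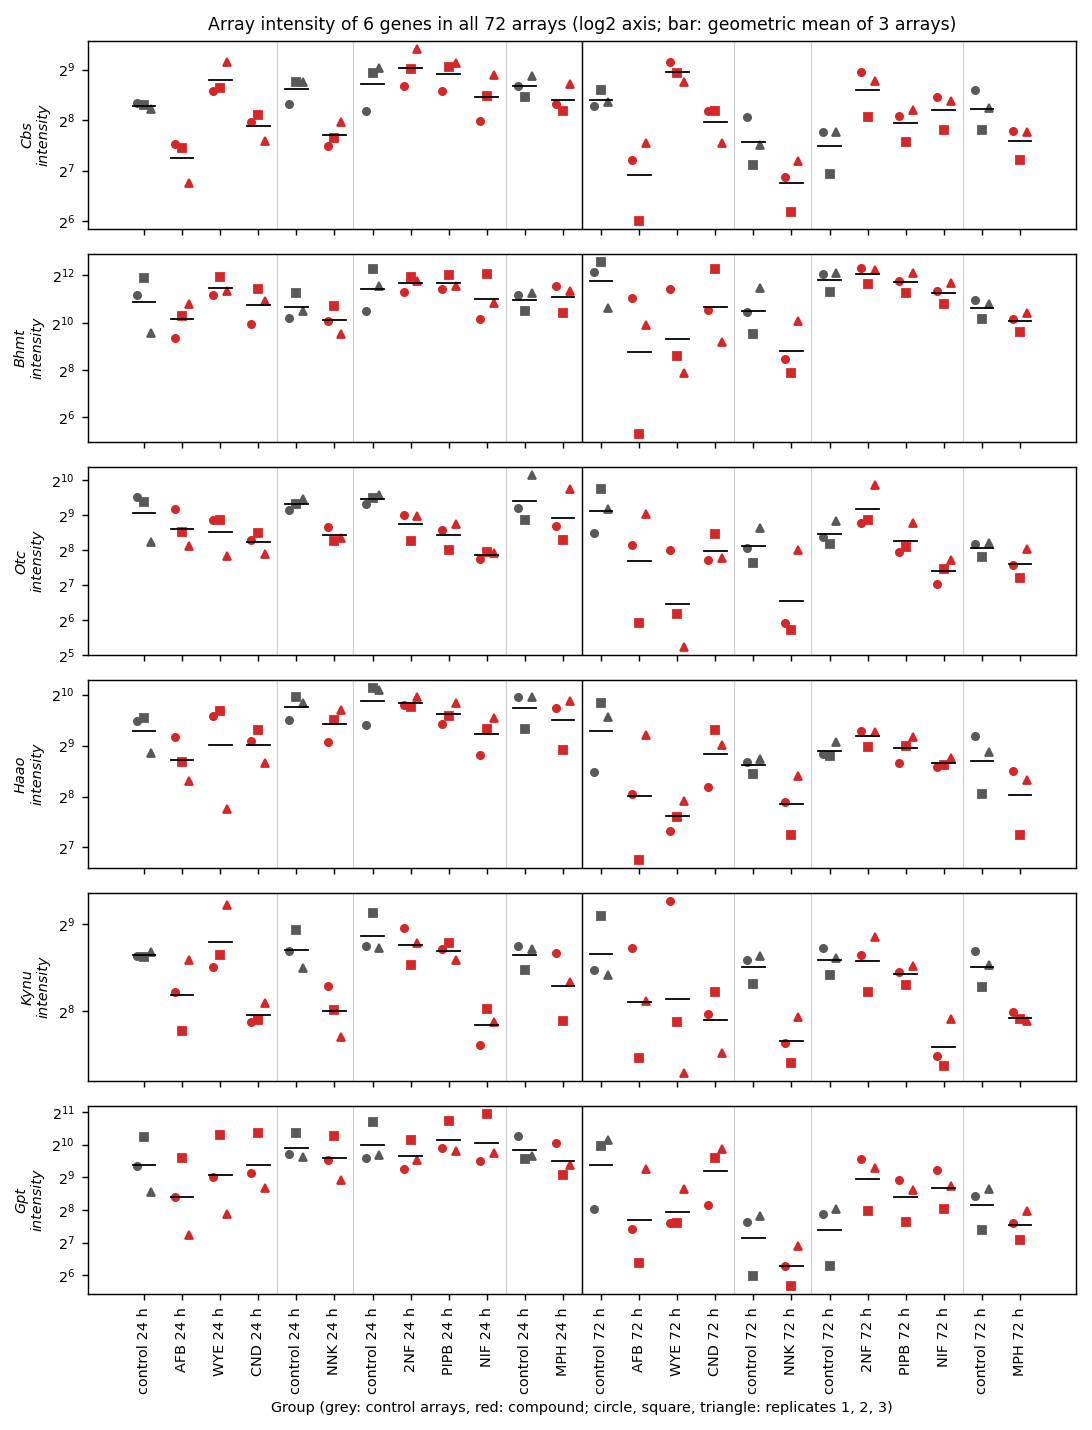
Array intensity (log2 axis) of Cbs, Bhmt, Otc, Haao, Kynu and Gpt on all 72 arrays, by group, 24 h left and 72 h right, with grey for controls, red for compounds and bars for geometric means. Otc stands lowest after 72 h of Wy-14643 (37.8 to 256), and Gpt is lower in 72 h controls than in 24 h controls of all sets but that of Wy-14643.

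Piperonyl butoxide, methapyrilene and clonidine gave no call among the 40 genes at either time. For piperonyl butoxide 4 and 1 passed an unadjusted p under 0.05 at 24 h and 72 h (0.0887% and 0 of all probe sets called), with medians of −0.21 and 0.06. For methapyrilene 0 and 3 did (0 of all probe sets called at both times), with medians of −0.11 and −0.22. For clonidine 3 and 6 did (0.0166% and 0.0332% called), with medians of −0.13 and −0.34. The 24 h median was −0.28 without D number 3, with −0.32, −0.25 and 0.08 in the pairs of D numbers 1, 2 and 3. At 72 h of methapyrilene and of clonidine 35 of the 40 were lower, though few probe sets of any kind passed in these comparisons. The nearest values were those of Prodh after 24 h of piperonyl butoxide (−0.85 ± 0.32), Hgd after 72 h of methapyrilene (−0.91 ± 0.48) and Kynu after 72 h of clonidine (−0.75 ± 0.27).

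The classes of carcinogen were compared as the mean effect of the 3 genotoxic minus that of the 3 non-genotoxic compounds. None of the 40 genes was called at 24 h (4 at an unadjusted p under 0.05; 0.432% of all probe sets lower and 0.565% higher) or at 72 h (5; 0.798% and 1.42%). Cbs differed by −0.69 ± 0.20 at 24 h (adjusted p = 0.0977) and by −0.52 ± 0.20 at 72 h. Hal, the histidine deaminase, differed the other way, by 0.69 ± 0.27 and 0.76 ± 0.27. Cbs was called at 24 h with the D number as a block and on the arrays of the comparison alone, and Cbs, Gls2 and Hal at 72 h without D number 3. With the high-actin arrays left out a single aflatoxin B1 array remained at each time, so no calls are given for the classes. Between 24 h and 72 h the effect of a compound differed with a call for 0 of the 40 genes, over all 8 compounds, where 0.116% of all probe sets were called for nifedipine, 0.0277% for NNK, 0.00554% for 2-nitrofluorene and 0 for the other 5.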

How the data were processed

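Total RNA of 72 samples was labelled with biotin and hybridised to rat arrays, 1 sample each. The deposited intensity values, on a linear scale, were made by the authors with MAS5, per the submitters' processing notes, version not given. The mean of each array without its outer 2% was close to 100. Groups, replicates and D numbers came from the titles, and the labels do not state what D numbers mean. The p-values measure the spread between arrays of a group, from independent experiments per the labels' protocols. The lowest values, below the 20th percentile, were set to it (3.117), and log2 was taken, which understates folds near the floor. Probe sets with a group mean at or above the median stayed (58% of 31099). The 24 groups were fitted in limma 3.58.1 (R 4.3.3) with an intensity trend, 48 residual degrees of freedom and Benjamini-Hochberg adjustment per comparison; the fit was tested on simulated data. Arrays of equal number deviated together (every pair over 0.1) in 14 of 16 compound comparisons, not in those of aflatoxin B1, and the block is given where it moved a count by over 1.5 times. Named genes were called members, with array values for the 3 largest changes of comparisons with 3 or more calls and for single calls. Members and lists were chosen with earlier results of these data known. Symbols came from the platform annotation.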

Additional observations from a re-analysis of the deposited data

How the results depend on the processing

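Values are counts of the 40 genes called. No result that was called changed direction under any alternative run, but calls were lost and gained. With the D number as a replicate block the counts were 10 for aflatoxin B1 at 72 h, 8 for NNK at 72 h, 3 and 1 for 2-nitrofluorene at 24 h and 72 h, 2 for nifedipine at 24 h, 14, 13 and 6 for culture time in the controls of 2-nitrofluorene, NNK and methapyrilene, and 1 for the carcinogen classes at 24 h. With a block within each time, added after seeing the data, they were 7 and 17 for aflatoxin B1 at 24 h and 72 h, 4 and 15 for NNK, 3 and 4 for 2-nitrofluorene, 1 and 18 for Wy-14643, 5 and 3 for nifedipine, and 1 and 1 for clonidine. Without D number 3 they were 0 and 13 for aflatoxin B1, 5 for NNK at 72 h, 2 and 2 for 2-nitrofluorene, 5 for Wy-14643 at 72 h, 2 for nifedipine at 24 h, 14, 16 and 7 for the same 3 control sets, and 3 for the carcinogen classes at 72 h. Leaving out the arrays of high actin ratio left a single aflatoxin B1 array at each time. No count is therefore given for aflatoxin B1 or the classes. The counts were 1 and 9 for NNK, 4 and 3 for 2-nitrofluorene, and 1 and 4 for piperonyl butoxide and nifedipine at 24 h. For the control sets they were 18, 19 and 9. On the arrays of each comparison alone, which has fewer arrays to estimate the spread, they were 0 and 0 for aflatoxin B1, 1 for 2-nitrofluorene at 72 h, 0 for Wy-14643 at 72 h, 3 and 3 for nifedipine, 22, 20 and 0 for the control sets, and 1 for the classes at 24 h. With no filter on low values, which tests more probe sets, they were 0 for aflatoxin B1 at 24 h, 0 for NNK at 72 h, 0 for 2-nitrofluorene at 24 h and 4 for the NNK controls. Quantile normalization gave 0 for aflatoxin B1 at 24 h and 2 for NNK at 72 h; for the mean of the 3 control sets it called 23, and of all probe sets 1944 rose and 1961 fell, against 2382 and 1555. No count moved by over 1.5 times with log2(value + 10) or without the intensity trend. The cause of the other shifts was not tested. Counts over all probe sets moved with these settings too, and those with a block are not given here. Without D number 3, at 72 h, they went from 886 to 2318 for aflatoxin B1 and from 600 to 1331 for NNK. In that fit the control sets of 2-nitrofluorene, NNK and methapyrilene went from 490, 515 and 92 to 1419, 1598 and 692.

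With single arrays left out the counts ranged from 0 to 1 for aflatoxin B1 and for 2-nitrofluorene at 24 h, for 2-nitrofluorene and nifedipine at 72 h and for the change of effect over all 8 compounds. They ranged from 0 to 10 for aflatoxin B1, 0 to 4 for NNK and 1 to 13 for Wy-14643 at 72 h, 0 to 2 for the classes at 72 h, 0 to 7, 0 to 8 and 0 to 3 for the controls of 2-nitrofluorene, NNK and methapyrilene, and 25 to 30 for their mean. The number of arrays, 3 per group, limits each value.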

Other observations

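Beyond the calls, some members lay on the same side of their controls under most compounds. These counts were made after the values were seen and are descriptions, since the 16 comparisons share controls within sets. They include the D number 3 arrays. Prodh was below its control in 16 of 16 comparisons, from −1.23 to −0.02 (median −0.57). Otc was below in 15 of 16, from −2.65 to 0.70 (median −0.85), and above its control only after 72 h of 2-nitrofluorene. Kmo, Kynu, Uroc1 and Ftcd were below in 15 of 16 as well, with medians of −0.53, −0.53, −0.63 and −0.36. Glul, glutamine synthetase, lay above its control in 14 of 16, with a median of 0.23 and a highest value of 0.48, and had no call in any. 

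Hal, the first enzyme of histidine breakdown, took different sides without a call. It was higher than its control after aflatoxin B1 (0.84 ± 0.41 at 24 h and 0.92 ± 0.41 at 72 h) and after NNK (0.49 ± 0.41 and 0.74 ± 0.41). At 72 h of NNK Hal measured 171, 147 and 148 against 75.4, 115 and 92.9 in the controls, which did not overlap. It was lower after piperonyl butoxide (−0.91 ± 0.41 and −0.89 ± 0.41), where it measured 30.1, 47.2 and 37.3 at 72 h against 59.0, 76.9 and 73.8, also without overlap. Uroc1 and Ftcd, which act after Hal, did not share the higher values under aflatoxin B1 and NNK: Ftcd was −2.45 ± 0.66 and −1.91 ± 0.66 at 72 h.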
